A study of Mus musculus with 2 samples.

Results

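The loci of 9 immediate early genes, Fos, Fosb, Fosl2, Jun, Junb, Jund, Egr1, Atf3 and Ier2, were examined in a list of Klf4 chromatin immunoprecipitation and sequencing (ChIP-seq) peaks from the mouse mesenteric microvasculature. A peak counted for a gene when its midpoint lay in a window of 25 to 60 kb set around that gene in mm9, the build of the list, and 9 of the 7313 peaks in the list met this rule. Mesenteric arcades, the branching small vessels of the gut mesentery, came from C57BL/6 mice on chow diet. The labels give 1 library from eYFP+/+ Klf4delta/delta mice, which lack Klf4 in their smooth muscle cells (SMC), and 1 library from eYFP+/+ Klf4WT/WT mice with intact Klf4. Mice of both genotypes carried the eYFP allele in SMC. The promoter that drove deletion, the age and sex of the mice and how many were pooled are not stated in the labels. The stromal vascular fraction was used, and the labels call it a mixture of SMC, epithelial cells, macrophages and others, so a peak cannot be placed in 1 cell type.

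The peaks form a single list that names no genotype and no replicate. The 2 genotypes were therefore not compared, no test was made and no value carries a replicate error. Each peak has a score that the authors' peak caller gave it, which here ranks peaks within the list, and the labels do not state the read depth behind the scores. The lowest score in the list was 60.01 and the highest 1023.8, so regions scored below 60.01, if there were any, are not in the list. Peak names ran from 1 to 7313 with 0 missing, so no number was skipped within the list. Peaks removed before numbering, if there were any, would not be seen in this way. An mm9 gene annotation was not used here. The windows carried the same chromosome as the gene in the GRCm38.p6 annotation for 9 of 9 genes, but where a peak lies relative to a start site, exon or intron was not established.

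Immediate early genes are transcribed within minutes of a stimulus such as a growth factor, stress or tissue injury, without new protein synthesis. Most of those studied here encode transcription factors. Members of the JUN and FOS families pair through leucine zippers to form AP-1, and JUN proteins can also pair with one another whereas FOS proteins need a partner. EGR1 binds DNA through zinc fingers, ATF3 is a leucine zipper protein of the ATF/CREB family induced by stress, and IER2 is a short-lived nuclear protein. In vascular SMC, AP-1 and EGR1 are known to rise after injury and growth factor stimulation. Klf4 is a zinc finger factor that binds GC-rich sites containing CACCC and is known in SMC for its part in the switch away from the contractile state.

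To set these loci beside the kind of site Klf4 binds, the bases before the annotated start are given for 5 of these genes. They are Jun, Junb and Fosl2, whose windows held the 3 highest member scores, Fos, the namesake of its family, and Fosb, whose window held no peak. The sequences are from RefSeq in build GRCm38.p6 and cover the 250 bases before the start, 5′ to 3′ on the gene's strand. They lie at chr4:95052223-95052472 (minus strand) for Jun, chr8:84978749-84978998 (minus strand) for Junb, chr5:32136222-32136471 (plus strand) for Fosl2, chr12:85473640-85473889 (plus strand) for Fos and chr7:19310046-19310295 (minus strand) for Fosb. These coordinates belong to another build than the peaks and cannot be set against them. Capitals mark CACCC or, on the other strand, its reverse complement.
Jun: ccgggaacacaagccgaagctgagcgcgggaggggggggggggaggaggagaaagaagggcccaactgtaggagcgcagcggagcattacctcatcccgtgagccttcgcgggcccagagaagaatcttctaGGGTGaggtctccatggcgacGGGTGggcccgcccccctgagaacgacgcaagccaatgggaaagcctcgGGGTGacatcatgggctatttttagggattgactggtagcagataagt
Junb: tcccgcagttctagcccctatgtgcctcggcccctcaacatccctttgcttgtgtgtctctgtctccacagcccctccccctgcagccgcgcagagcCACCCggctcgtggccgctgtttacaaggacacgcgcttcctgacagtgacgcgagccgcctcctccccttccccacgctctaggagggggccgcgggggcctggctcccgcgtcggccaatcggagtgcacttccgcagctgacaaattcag
Fosl2: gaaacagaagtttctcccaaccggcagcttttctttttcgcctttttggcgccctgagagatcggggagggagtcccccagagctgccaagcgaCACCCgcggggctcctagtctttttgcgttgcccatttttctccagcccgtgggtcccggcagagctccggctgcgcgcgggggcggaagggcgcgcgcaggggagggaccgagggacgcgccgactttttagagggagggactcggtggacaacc
Fos: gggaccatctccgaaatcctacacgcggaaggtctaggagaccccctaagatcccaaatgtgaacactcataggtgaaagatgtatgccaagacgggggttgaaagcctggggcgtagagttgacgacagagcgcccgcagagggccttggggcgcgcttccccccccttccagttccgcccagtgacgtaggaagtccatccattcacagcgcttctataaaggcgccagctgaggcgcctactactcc
Fosb: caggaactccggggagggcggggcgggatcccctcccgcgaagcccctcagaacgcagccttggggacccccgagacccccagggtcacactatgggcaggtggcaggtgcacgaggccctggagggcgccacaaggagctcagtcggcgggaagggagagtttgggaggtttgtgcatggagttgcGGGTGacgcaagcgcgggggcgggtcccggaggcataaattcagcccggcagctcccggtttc

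In the Jun stretch the core occurred 3 times, the nearest 43 bases before the start. Junb, Fosl2 and Fosb each held it once, at 148, 151 and 58 bases before the start. Fos held none. Among the 7 genes with a promoter in the RefSeq table, 6 held CACCC on either strand within the full stretch of 250 bases before to 50 bases after the start, as did 57.5% of all 32851 promoters in the table. The other 2 with the core were Jund (2 matches before the start) and Atf3 (3 matches before the start). A longer KLF-type word, GGGNGTGG on either strand, was in 0 of the 7 and in 17.6% of all promoters. The GC box GGGCGG, read by SP and KLF factors, was in 5 of the 7 (Fos, Fosb, Fosl2, Jun and Atf3) and in 35.7% of all promoters.

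Words read by other regulators of immediate early genes were counted in the same way. TGACG, a short core of the CREB and ATF site, was in 4 of the 7 promoters (Fos, Fosb, Junb and Atf3) and in 20.8% of all. The full site TGACGTCA was in 0 of the 7 and in 1.79% of all. The AP-1 word TGANTCA was in 0 of the 7 and in 7.81% of all. The CArG box, which SRF binds, was in 0 of the 7 and in 1.63% of all. Only these exact words within the stretch were counted, on either strand. Variants, such as TGACATCA in the Jun stretch above, and sites farther from the start were not counted. A 0 therefore does not show that a gene lacks such sites, and Egr1 and Ier2 had no promoter in the table. TATAA was in 2 of the 7 (Fos and Junb) and in 24.9% of all. Before the start only, it was in 1 of the 7 (Fos) and in 22.8% of all. Some forms of GGGNGTGG contain CACCC on the other strand, and each TGACGTCA contains TGACG. The 7 promoters had a median of 64.7% G or C and 21 CpG dinucleotides, against medians of 52.7% and 7 over all promoters. Jund, with 46.7% and 3 CpG, stood below the others and below both medians over all promoters.

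Of 16 further immediate early or AP-1 genes (Fosl1, Egr2, Egr3, Egr4, Nr4a1, Nr4a2, Nr4a3, Ier3, Ier5, Myc, Srf, Maff, Mafk, Batf, Jdp2 and Atf2), 13 had a promoter in the table. GGGNGTGG was in at least 1 promoter of 5 of these 13, CACCC in that of 9, GGGCGG in that of 12 and TGACG in that of 10. The shares over all promoters were 17.6%, 57.5%, 35.7% and 20.8% in the same order. Several of these genes have more than 1 listed promoter, which raises their counts. The 13 were counted as genes and the shares count single promoters. The counts are therefore not on equal terms with these shares or with those of the 7 members. Peaks were not assigned to them because no mm9 positions were at hand.

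Klf4 peaks lay in the windows of 7 of the 9 genes (77.8%): Jun, Junb, Jund, Fos, Fosl2, Atf3 and Ier2. The windows of Fosb and Egr1 held none. Single peaks were found for 5 genes, and Fosl2 and Ier2 had 2 each. When the chromosomes of the whole list were divided into stretches of the same length as the windows, at least 1 peak midpoint was held by 5.96% of 25 kb stretches (the length for Junb and Jund), 7% of 30 kb stretches (Ier2), 8.02% of 35 kb stretches (Fos, Fosb, Jun and Egr1), 10.9% of 50 kb stretches (Atf3) and 12.6% of 60 kb stretches (Fosl2). These stretches include sequence without genes, whereas each window was set on a gene, so the shares describe the list and are no test. The map of peaks by distance from the window centre shows the 9 loci together.

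**Figure D1:**
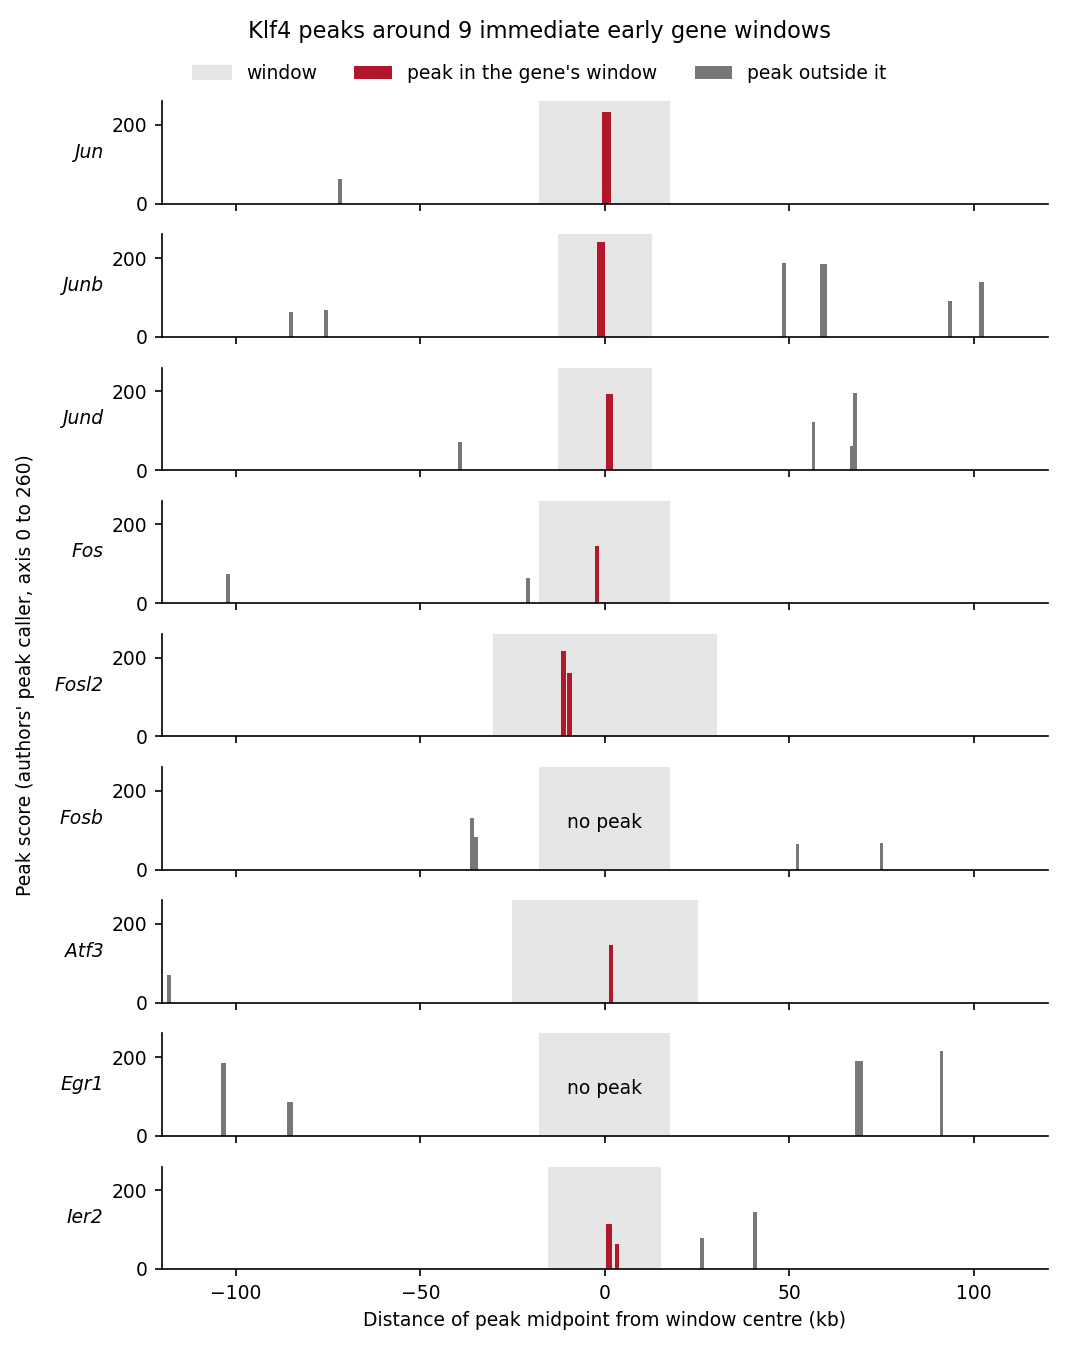
Klf4 peaks within 120 kb of the centre of each window, 1 row per gene. The horizontal axis is distance from the window centre in kb, bar height is the peak score, red bars are the 9 peaks in the grey windows (drawn at least 1 kb wide) and grey bars are peaks outside; Fosb and Egr1 have no red bar.

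The JUN family had a peak at each of its 3 genes, and each was both wide and in the upper 25% of scores. Junb, which encodes an AP-1 subunit that often restrains JUN, had the highest score of the 9 peaks, 240.95 (rank 613 of 7313), at 87500489 to 87502577 on chromosome 8 over 2089 bp. Jun, the founding AP-1 subunit, had a score of 233.19 (rank 672) at 94716650 to 94719118 on chromosome 4. At 2469 bp this was the widest of the 9 and rank 54 by width in the list. Jund, the JUN subunit present in many resting cells, had a score of 194.15 (rank 1141) at 73222946 to 73224681 on chromosome 8, over 1736 bp. The 3 JUN scores thus lay above those of 84.4% to 91.6% of the list. A peak in the upper 25% of scores (at least 161.17) was held by 2.35% of stretches as long as the Jun window and by 1.7% of those as long as the Junb and Jund windows.

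The FOS family was uneven, with peaks at Fos and Fosl2 and none at Fosb. Fos, the classical immediate early gene, had 1 peak with a score of 143.87 (rank 2282) at 86814833 to 86815918 on chromosome 12, over 1086 bp. Fosl2, which encodes FRA-2, had 2 peaks on chromosome 5, separated by 67 bp. The first, at 32438077 to 32439583, scored 217.3 (rank 834) over 1507 bp. The second, at 32439651 to 32441234, scored 160.53 (rank 1846) over 1584 bp, just under the upper 25%. Together they spanned 3158 bp, and the higher score was 1.35 times the lower. Of stretches as long as the Fosl2 window, 3.1% held at least 2 peaks and 3.98% held a peak in the upper 25% of scores. Whether the pair is 1 enriched region or 2 was not established from the list.

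Outside these families, Atf3 and Ier2 had peaks and Egr1 had none. Atf3 had 1 peak with a score of 146.04 (rank 2211) at 193006143 to 193007279 on chromosome 1, over 1137 bp, close in score and width to that of Fos. Ier2 had 2 peaks on chromosome 8, separated by 834 bp. The first, at 87185356 to 87186986, was 1631 bp wide but scored 114.02 (rank 3494), near the median of the list. The second, at 87187821 to 87188902, scored 63.04 (rank 7052), the lowest of the 9 and near the lower end of the list. The first score was 1.81 times the second. Of stretches as long as the Ier2 window, 1.15% held at least 2 peaks.

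The windows without a peak lay in peak-bearing surroundings. The Fosb window, 19875001 to 19910000 on chromosome 7, had 16 peaks within the 1 Mb centred on it, with scores between 60.22 and 256.08 and a median of 110.34. The nearest lay 17.4 kb before the window, at 19857227 to 19857947 with a score of 82.64, and 87 bp from it lay another, at 19856076 to 19857139 with a score of 130.22. After the window, the nearest peak was 34.7 kb away with a score of 65.05. The Egr1 window, 35005001 to 35040000 on chromosome 18, had 9 peaks within its 1 Mb, with scores between 86.09 and 215.15 and a median of 133.79. The nearest were 67.7 kb before it (score 86.09) and 51.5 kb after it (score 189.48, 2206 bp wide). With depth unknown, a window without a listed peak does not show absent binding.

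Peaks near the window edges were few. The nearest to an edge outside was at 86796500 to 86797036 on chromosome 12, 3.23 kb before the Fos window, with a score of 64.31 over 537 bp. Next came one 11.4 kb after the Ier2 window with a score of 78.29 over 366 bp. Inside, the peaks nearest an edge were those of Jund (11.2 kb), Junb (11.5 kb) and the second peak of Ier2 (11.6 kb). Of the 9 peaks, 7 had their midpoint within 4 kb of the window centre, and the 2 of Fosl2 lay 11.2 and 9.56 kb before the centre. How the windows were laid around the genes fixes part of this.

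Set against the whole list, the 9 peaks were wide and moderately high in score. Their median width was 1584 bp, against 913 bp over all peaks, and each of the 9, between 1082 and 2469 bp, was wider than that median. The widest 25% of the list (at least 1203 bp) held 6 of the 9. The median score was 160.53, against 112.02 over all peaks. Of the 9, 8 scored above the median of the list and 4 (44.4%), those of Junb, Jun, Jund and the first of Fosl2, fell in its upper 25%, which is 25% of all peaks by construction. The best rank by score among the 9 was 613, that of Junb. A top score as high as that of the gene was reached by 0.577% of equally long stretches of the whole list for Junb, 0.882% for Jun, 1.07% for Jund and 1.87% for Fosl2. The share was 2.91% for Fos, 3.76% for Ier2 and 3.98% for Atf3. These and the other whole-list shares given for single genes also cover sequence without genes, so they describe the list and are no test. The plot of score against width shows all 9 to the right of the median width.

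**Figure D2:**
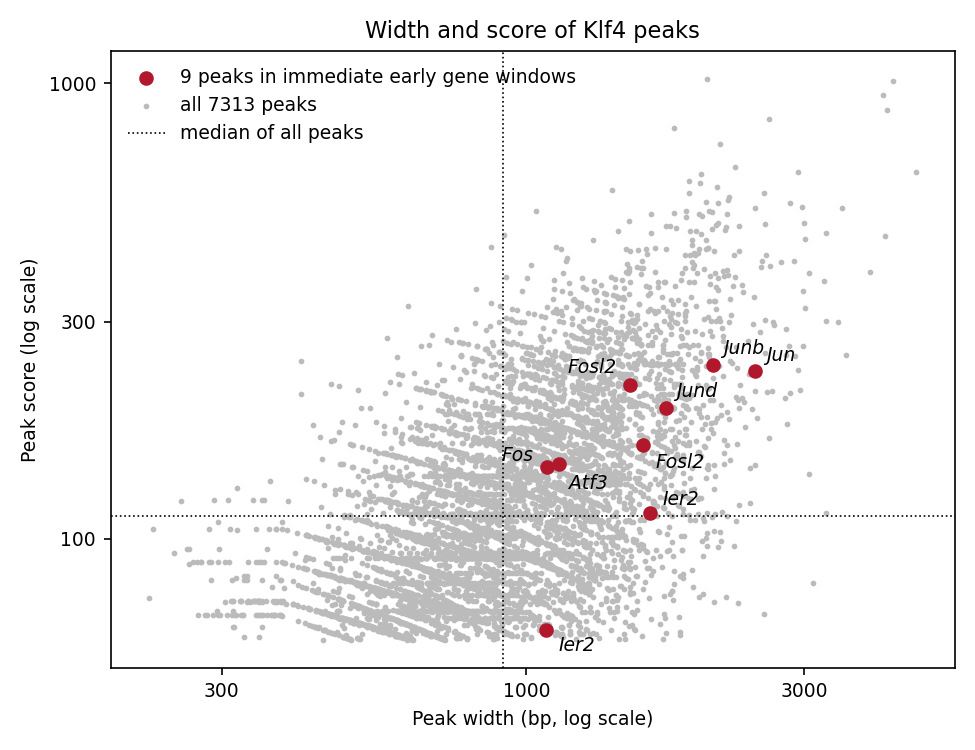
Peak score against peak width in bp, both on log scales, for the 9 peaks in immediate early gene windows (red, labelled) and all 7313 peaks (grey). Dotted lines mark the medians of all peaks, 913 bp and 112.02; all 9 lie right of the first and 8 lie above the second.

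Score per kb of width gave another order. The median of the 9 peaks was 112 per kb, against 129 over all peaks, and 0 of the 9 were in the upper 25% of that measure. The first Fosl2 peak had the highest value, 144 per kb (rank 2818), followed by Fos with 132 (rank 3438). Jun, rank 672 by score, was rank 5819 per kb with 94.4, and the Ier2 peaks were lowest with 69.9 and 58.3. Only the first Fosl2 peak and Fos exceeded the median of the list. Width is the divisor of this measure, so wide peaks tend to low values in part by construction. Across all 7313 peaks, which are not independent, Spearman's rho was -0.3 between width and score per kb and 0.55 between width and score. The 6 member peaks among the widest 25% had a median of 106 per kb and a median score of 205.73, against 113 per kb and 169.18 for all peaks that wide. The 2489 peaks (34% of the list) at least as wide as the narrowest of the 9 had a median score of 157.77, close to the 160.53 of the 9.

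**Figure D3:**
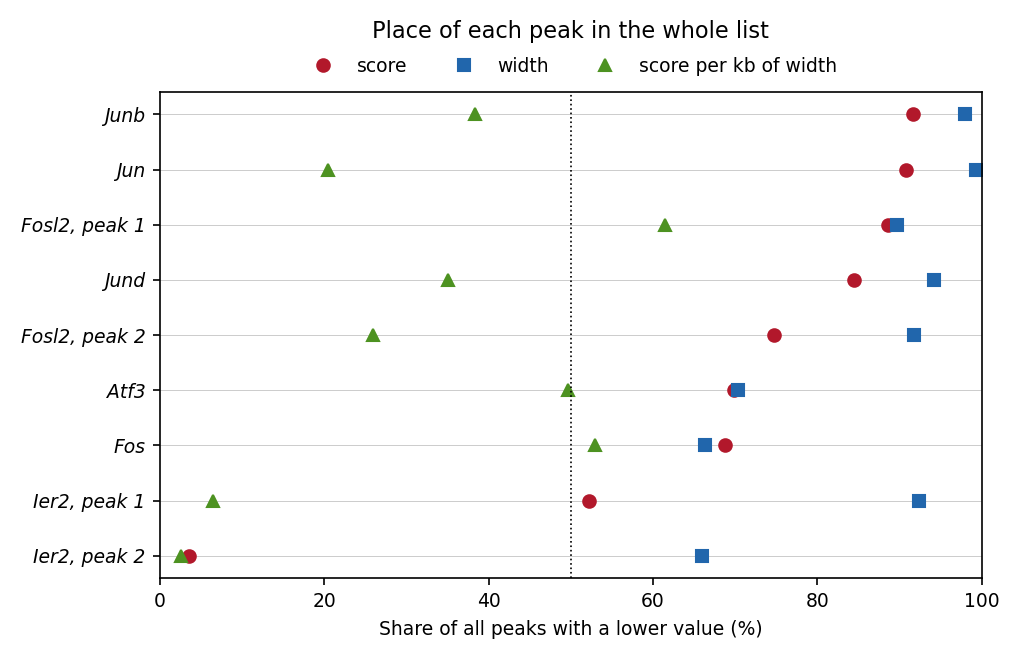
Share of all peaks in percent (horizontal axis) with a lower score (red circles), a smaller width (blue squares) and a lower score per kb of width (green triangles) than each of the 9 peaks, ordered by score from top to bottom. Width lies at 66% or more for each peak, whereas score per kb lies below 50% for 7 of them.

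The surroundings differed between genes. Equally long stretches were laid edge to edge on both sides of each window within the 1 Mb centred on it. Of these 244, 73 (29.9%) held a peak, against 5.96% to 12.6% in the whole list. The 1 Mb around Ier2 and that around Junb overlap, so part of their sequence and peaks was counted for both genes. The pooled stretches also mix lengths, and those of the whole list include sequence without genes. Jun and Fosl2 had the fewest peaks around them, 4 and 2 within their 1 Mb outside the window, and a peak was held by 11.5% of 35 kb stretches beside Jun and 14.3% of 60 kb stretches beside Fosl2. The nearest peaks outside lay 54.2 and 899 kb from the Jun window and 420 and 282 kb from the Fosl2 window. For these 2 genes the window's own peak was the highest of its 1 Mb, with 233.19 at Jun against 196.14 for the highest outside, and 217.3 at Fosl2 against 164.09. Fosb, with no peak of its own, and Ier2 had 16 peaks each within their 1 Mb outside the window, Junb and Jund 15 each, Fos 11, Egr1 9 and Atf3 5. The shares depend on the length of the stretches, so they order only genes with windows of equal length. Among the 35 kb windows, a peak was held by 46.2% of stretches beside Fosb, 30.8% beside Fos and beside Egr1, and 11.5% beside Jun. At 25 kb the share was 31.6% beside Jund and 28.9% beside Junb. It was 37.5% at 30 kb beside Ier2 and 27.8% at 50 kb beside Atf3. For each of the 9 genes this share was above that of the whole list at the same length. For 2 of them the margin was small and rested on few stretches. Beside Fosl2 it was 2 of 14 (14.3%, against 12.6% in the list) and beside Jun 3 of 26 (11.5%, against 8.02%). No test was made of these differences.

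**Figure D4:**
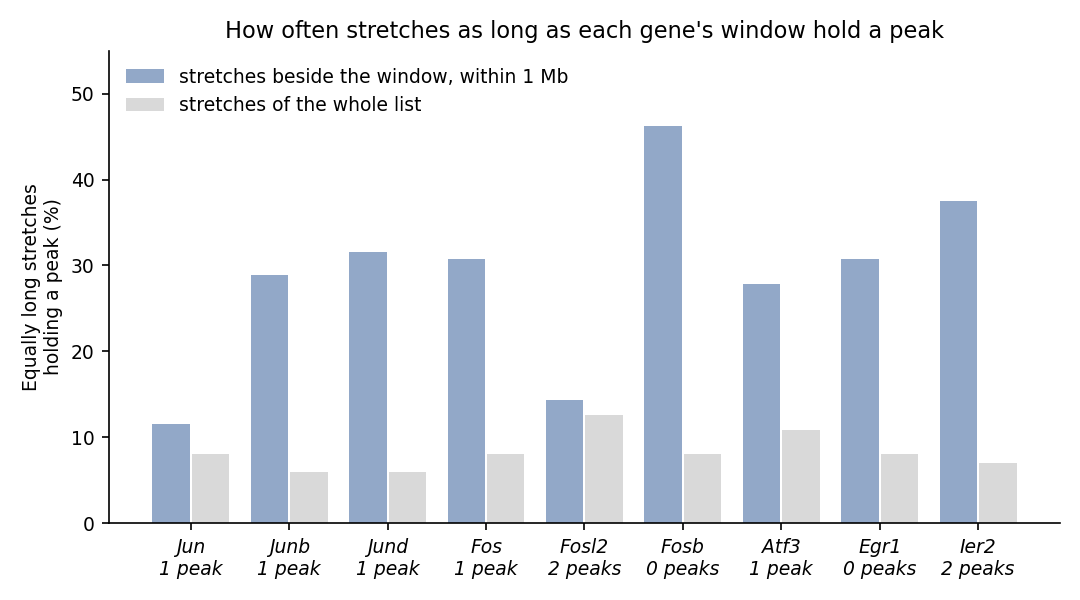
Percentage of equally long stretches that hold at least 1 peak midpoint, beside each window within 1 Mb (blue) and over the whole list (grey), for windows of 25 to 60 kb; the number of peaks in the window stands under each gene. Blue bars range from 11.5% at Jun to 46.2% at Fosb and grey bars from 5.96% to 12.6%, and bars of genes with windows of unequal length are not on equal terms.

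Chromosome 8 carried Jund, Ier2 and Junb, and the last 2 share surroundings. The 290 kb between the Ier2 and Junb windows held 7 peaks with scores between 62.77 and 231.05 and a median of 91.05. Their widths, between 281 and 1117 bp, were all below those of the Junb peak and the first Ier2 peak. The second Ier2 peak, 1082 bp wide with a score of 63.04, lay within both ranges. The Junb peak, 240.95, was also the highest within the 1 Mb around Ier2 outside its own window. Within the 1 Mb around Junb, the highest peak outside the window scored 333.39, and around Jund 240.04.

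Several windows may reach neighbouring genes, so a peak in a window is not tied to the gene it is listed under. In the GRCm38.p6 annotation the protein-coding neighbours are Tmed10 and Jdp2 for Fos, Rtn2 and Ercc1 for Fosb, Babam2 and Plb1 for Fosl2, and Mysm1 and Fggy for Jun. Junb lies between Prdx2 and Hook2, and Jund between Lsm4 and Iqcn. Egr1 lies between Reep2 and Etf1, Atf3 between Fam71a and Nenf, and Ier2 between Cacna1a and Nacc1. JDP2, next to Fos, is itself a leucine zipper partner of JUN proteins.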

How the data were processed

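The authors deposited 1 peak list for 2 libraries of anti-Klf4 ChIP from mesenteric arcades, with chromosome, start, end, name and score of each peak. The caller was MACS, per the peak names in the file. Its version and threshold are not stated in the file or labels. The submitters' processing notes list Bowtie, SAMtools and mm9, with no version. Neither the file nor the labels say which library was called against which, or whether 1 served as control. The score is the authors' value and was used to rank peaks within the list. Starts were shifted by 1 base to be 1-based. Ties in rank took the better rank.

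Windows were taken from a fixed mm9 list, and a peak belonged to a window if its midpoint lay in it. The members, windows and lists were chosen with earlier results of these data known. All 9 members are named, with each peak. Stretches ran from the first base to the last peak of each chromosome. Promoters came from the RefSeq table (GRCm38.p6), which held 7 of 9 members, all but Egr1 and Ier2, and 13 of the 16 other genes, all but Fosl1, Egr3 and Myc. Counting of peaks and motifs was tested on simulated data. Alternatives were other windows, overlap in place of midpoint, score limits, merging, score per kb, autosomes as background and other motif stretches. The tissue was not checked against marker genes, since a peak list holds no expression. Python 3.11.15, numpy 2.4.6, pandas 2.3.3 and matplotlib 3.10.9 were used.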

Additional observations from a re-analysis of the deposited data

How the results depend on the processing

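The number of windows with a peak, 7 of 9, was 7 under overlap by at least 1 base, windows extended by 10 kb or shortened by 5 kb on each side, and the upper 50% of scores. It was 4 (Jun, Junb, Jund and Fosl2) among the upper 25% of scores, where Fos, Atf3 and Ier2 fell out. The number of peaks in windows, 9, was 9 under overlap and shortened windows, 10 with extended windows (1 more at Fos), 8 with the upper 50%, 4 with the upper 25%, and 7 with peaks under 1 kb apart merged, which joined the pairs at Fosl2 and Ier2. Both falls under the score limits follow from listing fewer peaks. The 4 member peaks in the upper 25% of scores were also 4 with autosomes as background, but 0 by score per kb. With only the highest peak of each gene the count was 4 too. It could not differ, since the 4 peaks belong to 4 genes. GGGNGTGG was in 0 promoters in the full stretch, whereas CACCC was in 6. It was also in 0 in the part before the start, which follows because that part lies within the full stretch. No paired analysis was possible because each genotype has 1 library and the list names neither. Read depth, the position of start sites in mm9 and the genotype behind each peak limit all of these values.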
